A study of Schmidtea mediterranea with 50 samples.

Results

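During *p53* RNAi in whole planarians (*Schmidtea mediterranea*), a set of 200 transcripts stood above the control at day 9 and below it at day 18. The set was chosen on those same values, from 35057 transcripts. For each transcript the difference between *p53*(RNAi) and control worms of a day was taken as the difference of mean log2(RPKM + 0.5), where RPKM is reads scaled by transcript length and by the reads of the library. A member had a mean of at least 2 RPKM over all 50 libraries, a difference of at least 0.2 at day 9 and a difference of at most -0.4 at day 18. Of the 528 transcripts that met these limits, the 200 with the most negative value of day 18 minus day 9 were kept. Days 9 and 18 of *p53*(RNAi) and of the control are therefore given as description, without a test, and days 3, 6, 12 and 15 carry the tests. Along the ordering, thioredoxin peroxidase 2 (SMED30030295) came first, with a day 18 minus day 9 value of -3.66. The last member inside was SMED30024148, with differences of 0.57 at day 9 and -0.70 at day 18, so -1.27 between them. The first transcript outside, SMED30025017, had 0.25 and -1.01, so -1.26 between them.

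All worms were of the asexual CIW4 strain and were on a schedule of 3 feedings of RNAi food, given every 3 days, with days counted from the first feeding. Worms of day 3 had thus not yet had all 3 feedings. The last feeding fell on day 6, and whether worms of that day were taken before or after it is not stated. The control was *unc22* double-stranded RNA, which every comparison at a given day shares. *p53*(RNAi) and *unc22*(RNAi) worms were sampled on days 3, 6, 9, 12, 15 and 18 and *chd4*(RNAi) worms on days 3 to 15. Each of the 17 groups had 3 biological replicates of 10 pooled worms, except *p53*(RNAi) day 18 with 2, so an animal's own variation is not seen.

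Planarians keep a population of dividing adult stem cells, the neoblasts, which are the source of new cells in all tissues and which carry *smedwi-1*, a piwi-family gene. Their daughters stop dividing, and many mature through an epidermal lineage marked first by *prog* genes and then by *AGAT-1*. *p53*, the planarian relative of the vertebrate tumour suppressor, and *chd4*, a chromatin remodeller of the Mi-2 family, are both known for their part in the step from neoblast to differentiated progeny. *unc22* is a nematode muscle gene whose double-stranded RNA is widely used as a neutral control in planarians.

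Depth, worked out from the steps of the RPKM values, was 13.9 to 26.3 M reads per library (median 19.1 M), and each library correlated with its replicates at a mean r of 0.981 to 0.992. Replicate 1 of *p53*(RNAi) day 9 had the lowest value. The targeted transcripts were low in their own knockdowns: *p53* (SMED30026364) differed from control by -1.75 (log2) at day 3 and -3.65 at day 15 of *p53*(RNAi), and *chd4* (SMED30024368) by -1.81 at day 15 of *chd4*(RNAi). Markers of other cell types moved as well. Summed over 4 late epidermal progeny genes (*AGAT-1*, *zpuf-1*, *zpuf-3* and *odc-1*), the level at day 12 was 107 to 180 RPKM in *p53*(RNAi), 212 to 251 in *chd4*(RNAi) and 809 to 864 in the control. Over 3 gut genes (*nkx-2.2*, *cyp3G1* and *acsl-1*) it was 84.6 to 99.6, 55.6 to 76.6 and 211 to 227 RPKM, and over 2 epidermal genes (*zpuf-6* and *vim-3*) 398 to 437, 536 to 562 and 563 to 586 RPKM. A neoblast list of 6 genes, 4 of them members, summed to 424 to 604, 691 to 718 and 596 to 635 RPKM. The part of these shifts in the members' values was not tested. In RNA from whole worms, fewer cells of a type and less RNA per cell cannot be told apart.

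The members were modest in level, with a median over members of 5.68 RPKM (range 2.01 to 776) against 11.5 RPKM for the 17616 transcripts with a mean of 2 or more. A protein description was at hand for 90 of them and for none of the other 110. Descriptions cover only transcripts that the study listed as changed in these same worms. Calls of described genes that were not members, given below list by list, are thus not independent of that choice and are description only. Of all 1595 described transcripts tested, the 90 are 5.64%, which is the share to read each list against. Among the described members, 22 belonged to DNA replication and nucleotide supply, of 32 such transcripts tested, and 16 to mitosis and cell cycle control, of 37. Chromatin and histones gave 10 of 31, DNA repair 4 of 19, nuclear envelope and transport 4 of 13 and piwi or germ granule genes 2 of 11. RNA processing gave 1 of 38 and nucleolus and translation 3 of 74. No neural, ciliary, lysosomal or transporter transcript was a member, out of 36, 9, 73 and 108 tested, and a list of 9 is too short to read a count of 0 from.

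An in situ hybridization screen of the study gives a view, by staining, of where some members are expressed. The study took the screened genes from transcripts that fell in these same *chd4*(RNAi) and *p53*(RNAi) worms. Counts from the screen are thus not independent of the data that chose the members and are given as description. Of the 147 genes with primers for the screen, 8 were members. The scored pattern spoke of neoblasts for 7 of the 8 members, with the word maybe for 2 of them (1 pattern each of hazy and of faint staining), and for 21 of the 147 genes. The primers that define these probes on the transcripts are shown for 3 members whose values follow, a nuclear membrane protein, a single-strand DNA binding subunit and a histone-binding nuclear protein; capitals mark the bases specific to the gene, without the cloning tail.
Lamin-B receptor (SMED30030198), left: TCTGCAGTTTAAGTTAGGCG
Lamin-B receptor (SMED30030198), right: ATTGGATAGAACCAGCACAC
Replication protein A 32 kDa subunit (SMED30022437), left: TTAAAAATGTGGGGGTCGTCAG
Replication protein A 32 kDa subunit (SMED30022437), right: ACTCTCCATGAAGCGCAATTTC
ANP32A (SMED30018716), left: AGTTAATCATTTCAAAAGTCTGCACC
ANP32A (SMED30018716), right: ACGGTGAATTTTCAACATCCCC
The pattern of the Lamin-B receptor was scored as strong and neoblast-like, that of the replication protein as neoblast-like and that of ANP32A as neoblast-like with discrete mesenchymal cells.

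In *p53*(RNAi) the members as a set lay slightly above control at day 3, higher at days 6 and 9, and below it from day 12. Their median difference was 0.05 (log2) at day 3, 0.24 at day 6, 0.44 at day 9, -0.25 at day 12, -0.67 at day 15 and -1.35 at day 18, while the median of all 25079 tested transcripts stayed within 0.01 of 0 at the 4 days outside the rule. At day 6, 177 of the 200 were above control, and at day 15, 193 were below it. In *chd4*(RNAi) the course differed: -0.07 at day 3, -0.10 at day 6, 0.02 at day 9, 0.21 at day 12 and 0.01 at day 15. Its day 9 value used control libraries that helped to choose the members, so it is description only. The replicates of *p53*(RNAi) day 12 were spread widely, with member medians of -0.49, -0.23 and 0.02 in replicates 1, 2 and 3. At day 15 the 3 libraries gave -0.53, -0.81 and -0.69, all below the lowest of day 12.

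**Figure D1:**
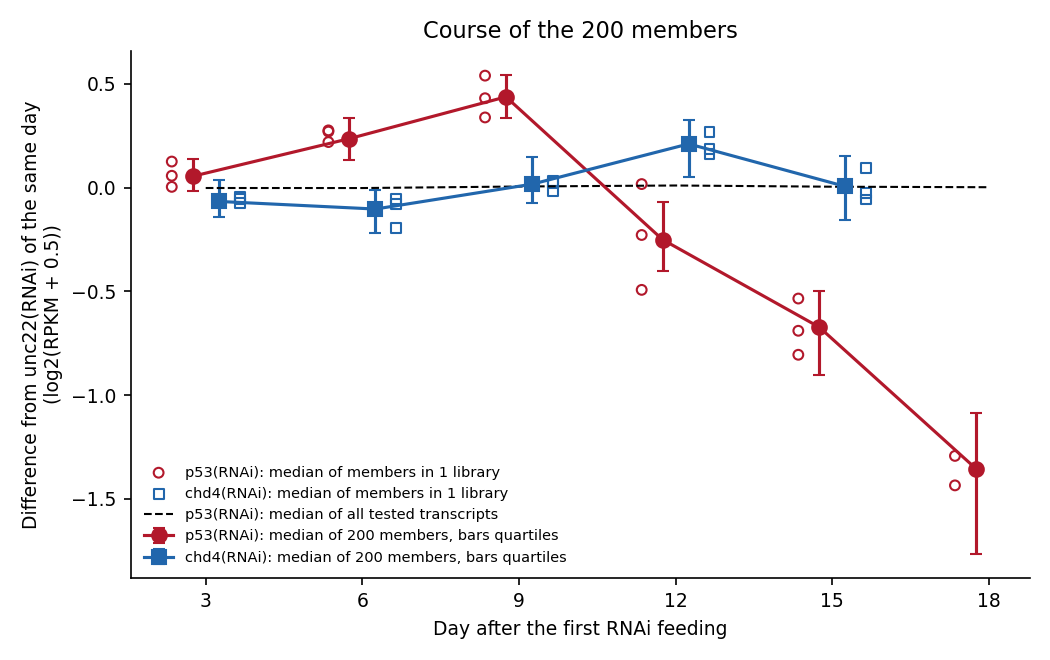
Difference of the 200 members from the control of the same day (y axis, log2(RPKM + 0.5)) by day of RNAi (x axis). Filled points are medians over members with quartile bars, open points are medians in single libraries, and the dashed line is the median of all tested transcripts; the *p53*(RNAi) medians go from 0.44 at day 9 to -0.67 at day 15 and those of *chd4*(RNAi) peak at 0.21 at day 12.

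The control itself drifted down over the series. Against its own day 3, the members' median in *unc22*(RNAi) was -0.08 (log2) at day 6, -0.27 at day 12 and -0.34 at day 18. Between days 6 and 12 of the control, 35 members were called lower, where 5.44% of all tested transcripts were, and 2 higher, where 3.31% were. A call means an adjusted p under 0.05 from limma across all tested transcripts. The 35 became 18 without *unc22*(RNAi) day 6 replicate 2, 21 without its replicate 3 and 19 without day 12 replicate 1. From day 9 to day 18 the members' median change was -2.05 in *p53*(RNAi) and -0.20 in the control, and all 200 members were lower at day 18 than at day 9 of *p53*(RNAi). Both days were used to choose the members, so these values are description only. For 2 members the control rose by more than *p53*(RNAi) fell, and they are described below with the exceptions.

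At day 3 of *p53*(RNAi), 2 members were called higher and 0 lower by limma, where 0.0797% and 0.694% of all tested transcripts were; at an unadjusted p under 0.05 the members' counts were 12 and 1. Both were SMED30000949 and SMED30002872, which have no description and were named after their values were seen. They stood at differences of 0.58 and 0.63 at day 3, 1.06 and 1.07 at day 6 and 1.01 and 0.95 at day 12, and their levels followed each other over the 50 libraries with r = 0.963. At day 15 they were at 0.25 and 0.26 and neither passed the test. The count of 2 became 1 without *p53*(RNAi) day 3 replicate 1 or 3 or *unc22*(RNAi) day 3 replicate 2 or 3.

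At day 6, 30 members were called higher and 0 lower by limma, where 1.08% and 2.15% of all tested transcripts were, and at an unadjusted p under 0.05 the counts were 92 and 2. The rise was small for nearly all: 3 members exceeded a log2 change of 1, where 0.0319% of all tested transcripts did. Among described members it included the SOX family transcription factors SOX-13 and SOX-14, the germ granule helicase DDX4, the Lamin-B receptor, both ribonucleotide reductase subunits named below, the licensing factors MCM2 and MCM4 and the mitotic kinesin KIF4B. Leaving out *p53*(RNAi) day 6 replicate 2 or 3 or *unc22*(RNAi) day 6 replicate 1 brought the 30 to 14, 13 and 13.

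At day 12, 78 members were called lower and 10 higher, where 13.4% and 15% of all tested transcripts were. The lower count rested in part on replicate 1 of *p53*(RNAi), which was lowest: without it 29 were called, and 27 were called when only the *p53* and *unc22* groups of that day entered the fit. The 10 became 6 without *p53*(RNAi) replicate 3 or *unc22*(RNAi) replicate 1 of that day. At day 15, 173 members were called lower, of which 28 beyond a log2 change of 1, and 3 higher, where 18.2%, 2.25% and 16.2% of all tested transcripts were. The count of lower members at day 15 stayed between 157 and 176 when any library of the groups compared was left out. The 3 higher became 1 without *p53*(RNAi) replicate 1 or *unc22*(RNAi) replicate 3 of day 15. Of the members, 23 were higher at day 6 and lower at day 15, where 0.299% of all tested transcripts were. Lower calls on both day 12 and day 15 were had by 76 members, where 10.6% of all had them, and at day 15 with no call at day 12 by 96, where 7.52% of all did. Both counts move with the day 12 count and so with replicate 1.

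The fall between days 12 and 15 was tested as the change of the difference itself. It passed for 58 members, where 1.26% of all tested transcripts were called lower, and for 0 in the other direction (0.447% of all; 0 members at an unadjusted p under 0.05 in limma). This count was the least steady. It became 103 without *p53*(RNAi) day 12 replicate 1, 10 without its replicate 3, 16 and 37 without day 15 replicates 2 and 3 and 32 without *unc22*(RNAi) day 15 replicate 1, and 0 when only these groups entered the fit. In the limma fit of all groups, 134 members had an unadjusted p under 0.05.

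**Figure D2:**
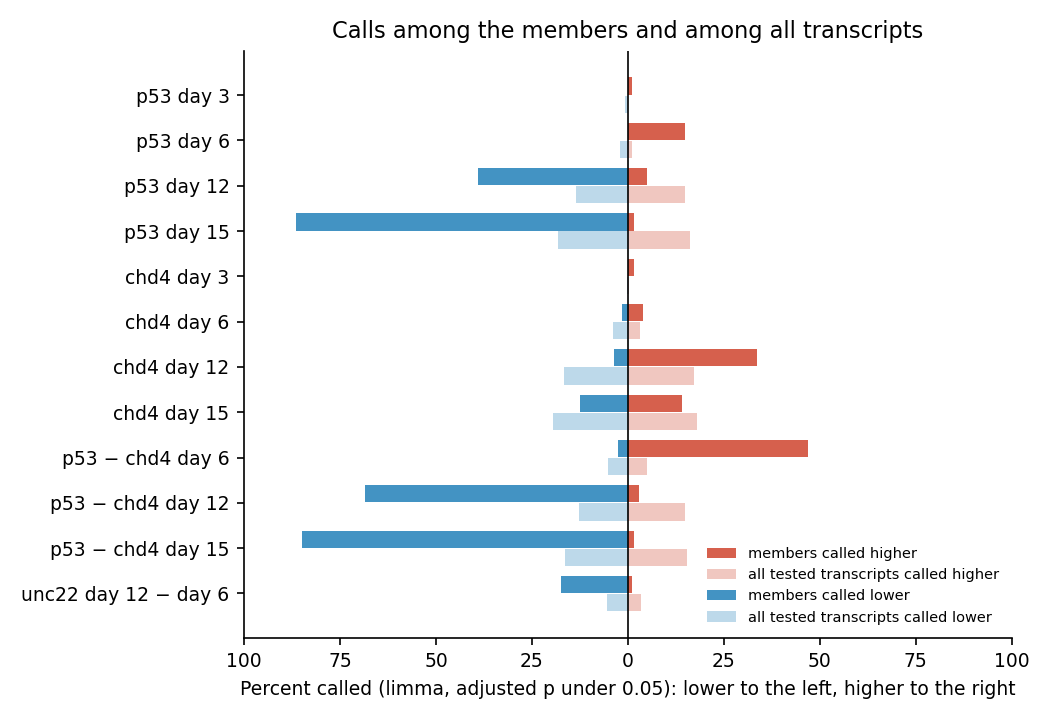
Percent (x axis) of members (dark bars) and of all 25079 tested transcripts (pale bars) called by limma in each comparison (y axis), lower in blue to the left of 0 and higher in red to the right. In *p53*(RNAi) day 15 the dark bar to the left reaches 86.5% and the pale bar 18.2%.

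Among piwi and germ granule genes, *smedwi-1* (SMED30007406) was the steepest described member after thioredoxin peroxidase 2 and Lamin-C. It stood at 279, 287 and 291 RPKM in the 3 *p53*(RNAi) libraries of day 6 and at 222, 236 and 222 in the controls. At day 9 it was at 296, 299 and 280 RPKM against 240.3, 229 and 214. The order then turned, with 90.7, 121 and 158 RPKM at day 12 against 168.5, 179 and 164, and 75.7, 52.7 and 60.9 at day 15 against 167, 159.5 and 162. At day 18 the 2 *p53*(RNAi) libraries had 25.7 and 17.5 RPKM and the controls 161.5 to 167. The groups did not overlap at days 6, 12 and 15. They did not at days 9 and 18 either, but those days chose the members. The limma difference was 0.33 ± 0.11 (log2, SE) at day 6 (adjusted p = 0.1), -0.50 ± 0.11 at day 12 (adjusted p = 0.00051) and -1.38 ± 0.11 at day 15 (adjusted p = 5.2e-13). DDX4 (SMED30031463), a relative of the germ line helicase Vasa, was called at all 3 days, at 0.34 (adjusted p = 0.00021), -0.21 (adjusted p = 0.0077) and -0.55 (adjusted p = 1.6e-09). Of the 9 tested genes of this list that were not members, 5 were called higher at day 6 and 9 lower at day 15, with a median of -0.45. Both other piwi transcripts were among them: SMED30001362 and SMED30014446 were at 0.19 and 0.21 at day 6 and -0.58 and -0.64 at day 15.

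Genes of DNA replication and nucleotide supply made up the largest described group. At day 6, 6 of the 22 members were called higher and 0 lower, at day 12 11 lower and 2 higher, and at day 15 20 lower and 0 higher, with a median difference of 0.30, -0.27 and -0.74. Over all tested transcripts 1.08% were called higher at day 6, and 13.4% and 18.2% lower at days 12 and 15. These shares stand beside every list here. Lists, however, hold only transcripts that the study listed as changed. Of 800 described transcripts outside the lists and the set, 24 were called higher at day 6 and 87 lower. At day 12, 482 of the 800 were called lower and 137 higher, and at day 15 526 and 154. The replication list had 10 tested genes that were not members. Lower calls were had by 8 of them at day 12 and 9 at day 15, with medians of -0.52 and -0.92, and 1 was called higher on each day. The large subunit of ribonucleotide reductase (SMED30029973), the enzyme that makes deoxyribonucleotides, was at 91.8, 92.0 and 94.2 RPKM in *p53*(RNAi) at day 6 and 75.0 to 78.1 in the controls. At day 15 it was at 46.1, 37.5 and 42.0 RPKM against 63.6 to 64.3, so the groups were apart in both directions. Its difference was 0.27 at day 6 (adjusted p = 0.039) and -0.61 ± 0.08 (SE) at day 15 (adjusted p = 2.2e-08). The small subunit M2 (SMED30010115) was called at 0.40 at day 6 and -0.61 at day 15, and its day 12 libraries, 27.4, 33.0 and 40.9 RPKM, lay on both sides of the controls at 32.0 to 33.8. PCNA (SMED30004304), the sliding clamp of the replication fork, went from 75.3 to 83.3 RPKM at day 9 to 17.5 to 22.6 at day 15 and 5.82 and 8.68 at day 18, with controls of 50.3 to 55.4, 33.4 to 38.7 and 37.6 to 38.5. Its day 15 difference was -0.90 (adjusted p = 1.9e-07).

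The MCM helicase, which unwinds DNA at replication origins, gives a view of members and non-members in a single complex. MCM2 (SMED30006979), MCM4 (SMED30023821), MCM5 (SMED30032563) and MCM7 (SMED30030946) were members and at day 15 differed from control by -0.96 to -1.02. They were named after their values were seen, as were MCM3 and MCM6. MCM2 was at 16.9, 18.3 and 17.9 RPKM at day 6 against 11.8 to 13.4 in the controls, and at 6.61, 4.41 and 5.23 at day 15 against 9.94 to 11.6. MCM3 (SMED30026560) stood at -1.45 at day 15 and -2.53 at day 18 but missed the rule because its day 9 difference was 0.14. MCM6 (SMED30033600) missed it with 0.17 at day 9 and was at -0.38 at day 15. Within the same group, MCM10 (SMED30001057) and ribonucleotide reductase M2 B (SMED30026659) were called higher at day 12, at 0.35 and 0.27, and at day 15 stood at -0.11 and -0.08 without passing the test. Both were also named after their values were seen. The replication protein A subunit (SMED30022437) fell to 12.95, 10.5 and 12.2 RPKM at day 15 against 18.1 to 21.0 (difference -0.68, adjusted p = 7.1e-07).

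Of the 16 members in mitosis and cell cycle control, 1 was called higher at day 6, 8 lower at day 12 and all 16 lower at day 15, with a median difference of -0.79. The 21 tested genes of this list that were not members were also all called lower at day 15, with a median of -0.59. PLK1 (SMED30025780), a kinase of mitotic entry and exit, stood at 12.6, 15.0 and 19.6 RPKM at day 12 against 18.5 to 19.9, and at 11.6, 8.85 and 9.81 at day 15 against 17.4 to 18.6. The groups overlapped at day 12 and were apart at day 15. Its differences were -0.30 (adjusted p = 0.014) and -0.80 ± 0.09 (SE; adjusted p = 5.9e-09). Cyclin-B2 (SMED30005246), which binds CDK1 for entry into mitosis, was at -0.24 at day 12 (adjusted p = 0.12) and -0.89 at day 15 (adjusted p = 3.2e-08), and was down to 2.31 and 1.46 RPKM at day 18 against 11.3 to 12.8. CDC20 (SMED30021402), an activator of the anaphase-promoting complex, was at 0.00 at day 12 and -0.49 at day 15 (adjusted p = 1.1e-05).

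All 4 members of the DNA repair list were called lower at day 15, with a median of -0.93. The list is a word match and does not hold every repair protein among the members. Outside it were MRE11A (SMED30007929), at -0.63, and a DNA-(apurinic or apyrimidinic site) lyase (SMED30012311), at -0.82, both named after their values were seen. Exonuclease 1 (SMED30025421), which resects DNA ends, was at 2.26, 1.43 and 1.73 RPKM at day 15 against 3.62 to 4.62 (difference -1.02, adjusted p = 3.2e-09). RAD54B (SMED30009590), a recombination helicase, was at 3.24, 3.06 and 3.05 RPKM against 4.997 to 5.014, a difference of -0.61 (adjusted p = 1.2e-07). All 15 other tested genes of this list were called lower as well, with a median of -0.76.

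Nuclear envelope and transport members were 4 of 4 lower at day 15, at a median of -1.16, and 3 of 4 lower at day 12. The 9 tested genes of this list that were not members were also all called lower at day 15, with a median of -0.51, and 4 of them at day 12. Lamin-C (SMED30010297), a filament protein of the nuclear lamina, was at 18.1, 24.2 and 30.9 RPKM at day 12, 19.2, 10.1 and 15.0 at day 15 and 4.47 and 3.43 at day 18, with controls between 30.8 and 35.6 on these days. The *p53*(RNAi) libraries of day 15 were all below that range, as were those of day 18, a day that chose the members. Its difference at day 15 was -1.13 ± 0.13 (SE; adjusted p = 2.0e-09). Importin subunit alpha-1 (SMED30012458), an adaptor for nuclear import, differed by -1.23 at day 15 (adjusted p = 8.4e-12), and over the 50 libraries its level followed that of *smedwi-1* most closely of all transcripts (r = 0.988). The Lamin-B receptor (SMED30030198) rose at day 6, with 66.1, 71.7 and 70.6 RPKM against 50.3 to 55.0 (difference 0.39, adjusted p = 0.00015), was at 32.9, 39.2 and 44.3 at day 12 against 36.6 to 39.1, and fell to 29.1, 22.98 and 25.3 at day 15 against 35.3 to 36.3 (difference -0.47, adjusted p = 4.7e-07).

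Chromatin members numbered 10, of which 9 were called lower at day 15. Among the 21 tested genes of this list that were not members, 15 were called lower and 1 higher, with a median of -0.34. The most abundant, histone H2A-IV (SMED30013212), had 231, 202 and 209.8 RPKM at day 15 against 326 to 351 (difference -0.66, adjusted p = 1.1e-08). H2A.v (SMED30017222) and H2A.J (SMED30002436) differed by -0.43 and -0.97. ANP32A (SMED30018716) was at 51.5, 43.6 and 45.3 RPKM against 71.2 to 71.8 (difference -0.61, adjusted p = 2.1e-08). Histones are multicopy genes and a read could be aligned to several transcripts, so a histone value may hold reads of near-identical copies.

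SOX-13 (SMED30019097) and SOX-14 (SMED30035063), named after their closest relatives in other animals, were, with innexin unc-9, the described members with the largest differences at day 6. SOX-13 was at 27.4, 29.1 and 28.1 RPKM at day 6 against 16.9 to 19.3, at 14.9, 14.4 and 20.3 at day 12 against 12.6 to 14.1, and at 11.2, 8.70 and 10.8 at day 15 against 12.6 to 13.3. It was thus above all controls at days 6 and 12 and below all at day 15, with differences of 0.65 (adjusted p = 8.3e-06), 0.30 (adjusted p = 0.017) and -0.33 (adjusted p = 0.0058). The day 15 call was lost without *p53*(RNAi) replicate 2, where the difference was -0.23. SOX-14 went from 0.52 at day 6 (adjusted p = 2.5e-06) to 0.08 at day 12 and -0.55 at day 15 (adjusted p = 7.3e-08), and its change between days 12 and 15 passed the test at -0.63 (adjusted p = 0.00078). A zinc finger protein related to ZNF333 (SMED30031507) was at -0.86 at day 15.

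Outside these groups, thioredoxin peroxidase 2 (SMED30030295), which reduces peroxides, showed the steepest course. It was at 59.0 to 74.7 RPKM at day 9 of *p53*(RNAi) against 46.2 to 50.4, at 19.3, 25.9 and 34.9 at day 12 against 46.5 to 49.9, and at 16.9, 12.6 and 10.7 at day 15 against 41.1 to 46.4. The day 12 and 15 differences were -0.88 (adjusted p = 1.0e-06) and -1.70 ± 0.13 (SE; adjusted p = 1.0e-13). CPSF4 (SMED30009393), of the cleavage and polyadenylation complex, was at -0.08 at day 12 and -1.08 at day 15. The RNA polymerase II subunit RPB9 (SMED30021243) was already at -0.57 at day 12 and stayed at -0.59 at day 15. 40S ribosomal protein SA (SMED30028665) and tRNA adenosine deaminase 2 (SMED30019924) were at -0.60 and -0.56 at day 15, C9orf64-like (SMED30011372) at -0.97 and dynactin subunit 1 (SMED30014136), of the dynein motor, at -0.61. In *chd4*(RNAi) the 40S protein was called higher at day 15, at 0.52, while 65 of the 71 tested genes of its list that were not members were called lower and 4 higher.

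Of the 110 members without a description, 14 were called higher at day 6, where 1.08% of all tested transcripts were. At day 12, 35 were called lower and 5 higher, where 13.4% and 15% of all were. Day 15 gave 87 lower and 2 higher, where 18.2% and 16.2% of all were. The most abundant member of all, SMED30019803, was at 448, 534 and 711 RPKM at day 12 against 742 to 779, and at 348, 275 and 326 at day 15 against 641 to 687 (difference -1.06, adjusted p = 2.6e-11). Over the 50 libraries its closest transcript was histone H2A-IV (r = 0.987). SMED30027566 was closest to PCNA (r = 0.988) and differed by -0.84 at day 15. SMED30022444 was closest to Lamin-C (r = 0.977) and differed by -0.82 at day 12 and -1.04 at day 15. SMED30019057 and SMED30025757 differed by -0.68 and -0.66 at day 15. In all, the transcript with the highest r was itself a member for 135 of the 200, with r between 0.529 and 0.991 (median 0.954). These r values share the course that chose the members and are given as description.

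**Figure D3:**
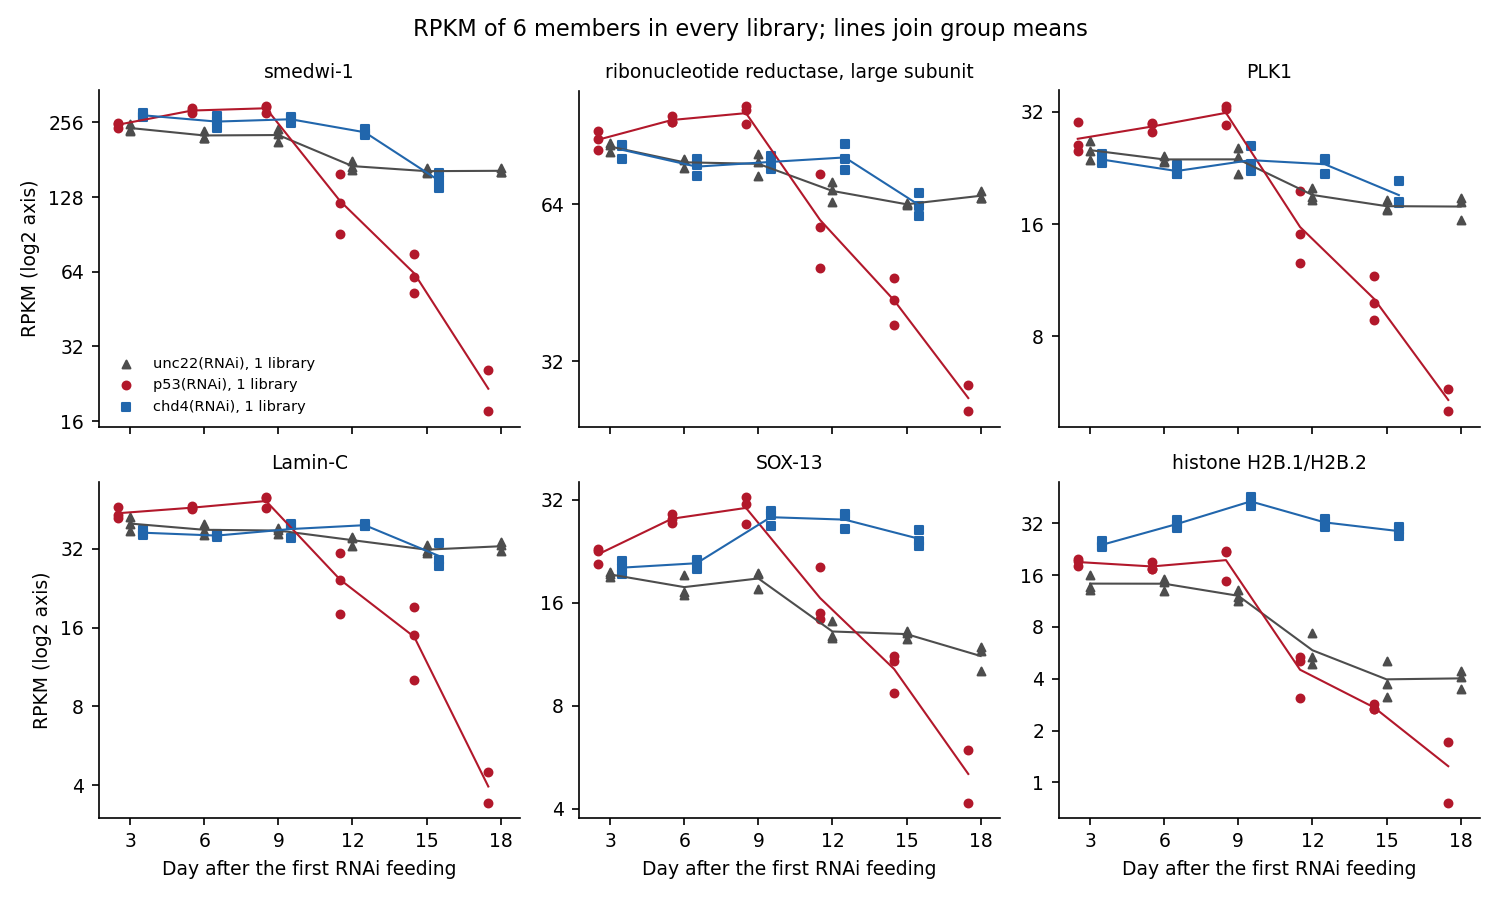
RPKM (y axis, log2 scale) of *smedwi-1*, ribonucleotide reductase large subunit, PLK1, Lamin-C, SOX-13 and histone H2B.1/H2B.2 (SMED30021461) by day (x axis) in every library of *unc22*(RNAi), *p53*(RNAi) and *chd4*(RNAi); lines join group means. In the first 5 panels the *p53*(RNAi) libraries of day 15 lie below those of both other groups, and in the H2B panel the *chd4*(RNAi) libraries lie above all others, at 26.8 to 30.4 RPKM on day 15.

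In *chd4*(RNAi) 158 of the 200 members were above control at day 12. Fewer were at the other days, with 58 at day 3, 43 at day 6, 112 at day 9 and 102 at day 15. The day 9 count shares its control libraries with the rule and is description only. At day 12, 67 were called higher and 7 lower, where 17.2% and 16.6% of all tested transcripts were. At day 15, 28 were higher and 25 lower, where 17.9% and 19.5% of all were, so the members' shares of 14% and 12.5% were below the background. Days 3 and 6 gave 3 and 8 higher and 0 and 3 lower (0.179% and 3.11%, and 0.159% and 3.84%, of all; 13 members lower at day 3 at an unadjusted p under 0.05 in limma). The 3 higher at day 3 became 1 without any of its *chd4*(RNAi) libraries or without *unc22*(RNAi) replicate 2 or 3. The 8 became 5 without *chd4*(RNAi) day 6 replicate 1 or 2 or *unc22*(RNAi) day 6 replicate 2, and the 3 lower became 1 without *chd4*(RNAi) replicate 3 and 0 without *unc22*(RNAi) replicate 2. Of the 67 higher at day 12, 38 were not called at day 15 and 28 were still higher, where 4.61% and 12.5% of all tested transcripts had these pairs of calls, and 55 were lower at day 15 of *p53*(RNAi), where 1.56% of all had that pair.

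By role, 10 of 22 replication, 7 of 16 mitosis, 6 of 10 chromatin and both piwi and germ granule members were called higher in *chd4*(RNAi) at day 12. At day 15 these counts were 2, 3, 3 and 0. The shares of all tested transcripts called higher were 17.2% at day 12 and 17.9% at day 15. Of the 800 described transcripts outside the lists and the set, 162 and 167 were called higher on these days, and 527 and 571 lower. Among genes of the same lists that were not members, 4 of 10, 0 of 21, 8 of 21 and 4 of 9 were called higher at day 12. In the same order, 0, 5, 7 and 0 of them were called lower. *smedwi-1* (SMED30007406) was at 241, 228 and 232 RPKM at day 12 against 164 to 179 in the controls (difference 0.45, adjusted p = 0.0012), and at 159.5, 139 and 149 at day 15 against 159.5 to 167 (difference -0.13, adjusted p = 0.41). SOX-13 (SMED30019097) stayed up, at 28.6, 26.4 and 29.03 RPKM at day 12 and 26.1, 23.5 and 24.3 at day 15, with differences of 1.06 (adjusted p = 6.9e-12) and 0.90 (adjusted p = 3.6e-10). The Lamin-B receptor (SMED30030198) was higher by 0.34 at day 12 (adjusted p = 0.0001), PLK1 (SMED30025780) by 0.27 (adjusted p = 0.025) and the ribonucleotide reductase large subunit (SMED30029973) by 0.21 (adjusted p = 0.028), and none of these passed at day 15. The last 2 lost the day 12 call when replicate 1 or 3 of *chd4*(RNAi) or replicate 2 or 3 of *unc22*(RNAi) was left out. Thioredoxin peroxidase 2 (SMED30030295) went the other way, with -0.13 at day 12 and -0.61 at day 15 (adjusted p = 0.00017), and the abundant SMED30019803 with -0.11 and -0.54 (adjusted p = 2.4e-05).

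A direct comparison of the knockdowns needs no control library. At day 6, 94 members were higher and 5 lower in *p53*(RNAi) than in *chd4*(RNAi), where 4.89% and 5.08% of all tested transcripts were. At day 12 the order had turned, with 137 lower and 6 higher (12.8% and 14.8% of all), and at day 15 170 were lower and 3 higher (16.3% and 15.5% of all). The count at day 6 became 53 without *chd4*(RNAi) day 6 replicate 3 and 58 and 59 without *p53*(RNAi) replicates 2 and 3. At day 12 it became 90 without *p53*(RNAi) replicate 1 and 91 with only these groups in the fit. At day 15 it stayed between 161 and 170 when any library of the groups compared was left out. For *smedwi-1* (SMED30007406) the difference at day 15 was -1.25 (adjusted p = 4.0e-12), for Lamin-C (SMED30010297) -1.04 and for PLK1 (SMED30025780) -0.90.

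**Figure D4:**
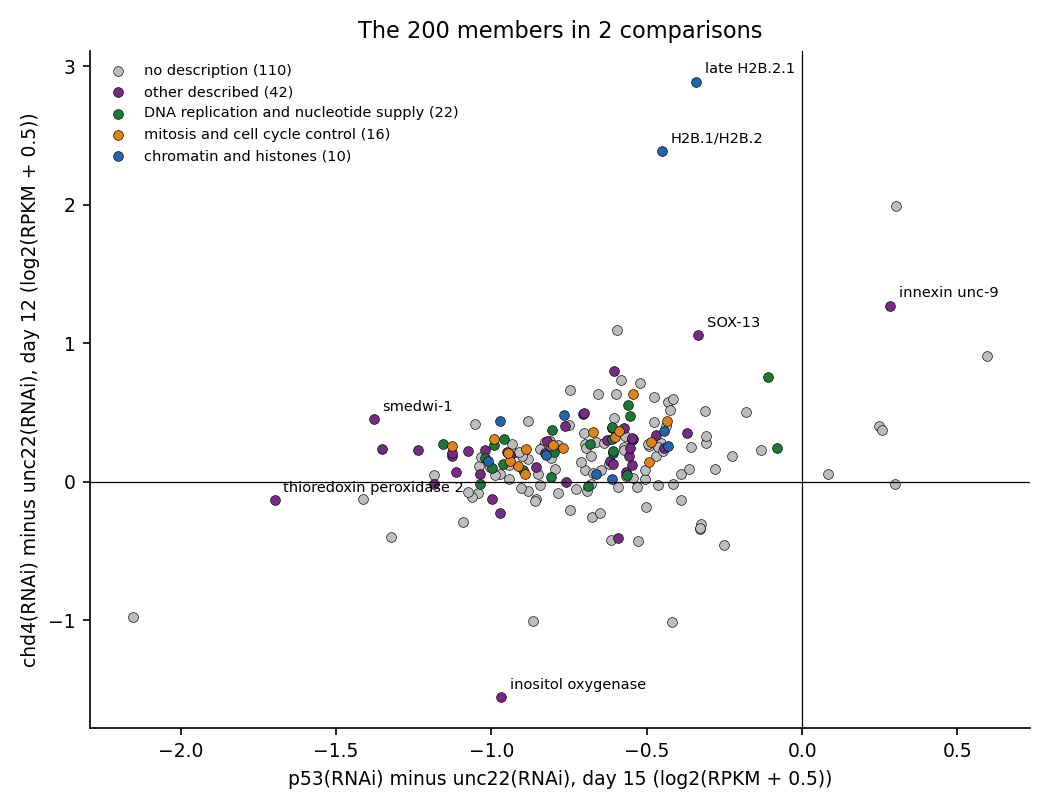
Difference from control of each member at day 15 of *p53*(RNAi) (x axis) and at day 12 of *chd4*(RNAi) (y axis), both in log2(RPKM + 0.5), coloured by role with the number of members in brackets. Most points lie to the left of 0 and above 0; the H2B transcripts stand at the top, inositol oxygenase at the bottom (-1.55) and innexin unc-9 to the right of 0 (0.28).

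Some members departed from the common course. The histone H2B.1/H2B.2 transcript (SMED30021461) was at 33.3, 30.2 and 31.4 RPKM at day 6 of *chd4*(RNAi) against 12.9 to 15.2, at 32.8, 30.3 and 34.1 at day 12 against 4.84 to 7.35, and at 26.8, 30.4 and 29.2 at day 15 against 3.15 to 5.05. Its differences were 1.12, 2.39 and 2.73 (adjusted p = 3.8e-06, 9.5e-16 and 8.3e-18). In *p53*(RNAi) it differed by -0.45 at day 15 (adjusted p = 0.025), a call lost without *p53*(RNAi) replicate 2 or 3, without *unc22*(RNAi) replicate 3, or with only these groups in the fit. The late histone H2B.2.1 transcript (SMED30011775) was called higher in *chd4*(RNAi) from day 3 on, at 1.36, 2.03, 2.89 and 2.25 on days 3, 6, 12 and 15. In *p53*(RNAi) it was at 0.67 at day 12 (adjusted p = 0.0063) and -0.34 at day 15 (adjusted p = 0.18).

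Innexin unc-9 (SMED30023483), a gap junction protein, was still above control in *p53*(RNAi) worms of day 15. Its levels were 13.5, 14.3 and 13.9 RPKM at day 6 against 8.80 to 9.34, at 10.5, 9.97 and 12.1 at day 12 against 5.52 to 5.86, at 6.28, 5.47 and 5.35 at day 15 against 4.04 to 5.27, and at 2.96 and 3.04 at day 18 against 4.65 to 5.81. It was thus below the controls at day 18 only, with a day 15 difference of 0.28 (adjusted p = 0.011) that lost its call without *p53*(RNAi) replicate 1, without *unc22*(RNAi) replicate 3 or with only these groups in the fit. In *chd4*(RNAi) it was higher by 1.27 at day 12 and 1.63 at day 15 (adjusted p = 4.1e-15 and 1.2e-18).

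The 2 members whose control rose most were inositol oxygenase (SMED30019899), which starts the breakdown of inositol, and SMED30015328. In the controls inositol oxygenase was at 15.3 to 16.1 RPKM at day 9, 30.7 to 31.4 at day 12 and 34.1 to 38.5 at day 18, while *p53*(RNAi) had 20.03 to 23.6, 20.4 to 25.5 and 15.6 to 19.0. SMED30015328 was at 8.49 to 9.84 RPKM in the controls of day 9 and at 83.4 to 108 at day 12, and at 22.8, 31.3 and 27.6 in *p53*(RNAi) of day 12. From day 9 to day 18 inositol oxygenase changed by -0.35 (log2) in *p53*(RNAi) and 1.16 in the control, and SMED30015328 by -0.41 and 2.81. They were the 2 members called higher between days 6 and 12 of *unc22*(RNAi), by 0.69 (adjusted p = 5.8e-05) and 2.91 (adjusted p = 4.1e-14). In *chd4*(RNAi) they were lower too, inositol oxygenase by -1.55 and -1.99 at days 12 and 15 (adjusted p = 8.7e-15 and 2.8e-18) and SMED30015328 by -0.97 and -1.25, although the latter was higher there at day 6, by 1.00.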

How the data were processed

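Total RNA of whole worms was selected for polyA, made into stranded libraries and sequenced. The authors demultiplexed reads with CASAVA 1.8.2, aligned reads with Bowtie to assembled transcripts, allowing a read several matches, counted them and tested counts with edgeR; versions of Bowtie and edgeR are not given in the sources used here. The deposited values are RPKM per transcript and library, scaled by the authors, with 0 further columns of per-sample values. Here limma 3.58.1 in R 4.3.3 was fitted with an intensity trend to log2(RPKM + 0.5) of all 50 libraries in 17 groups, since RPKM are not counts. Transcripts needed 1 RPKM in 2 libraries (25079 tested; all 200 members passed), and p-values, two-sided, were adjusted by the Benjamini-Hochberg method over all of them. Names of the authors' tools follow their processing notes and methods. The fit was tested on simulated data. All other steps ran in Python 3.11.15 (numpy 2.4.6; pandas 2.3.3; figures by matplotlib 3.10.9). Depth came from the whole steps of RPKM values, found directly for 53.3% of transcripts. All members were assigned whole lengths and had at least 9.5 reads per library on average over days 12 and 15, with a median over members of 140 reads.

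Members, gene lists and tests were chosen with earlier results of these data known. Lists are word matches to protein descriptions from the study's supplementary files. Named genes were, by rule, up to 3 of highest RPKM per list (1 for the lesser lists), the 5 steepest described and 3 steepest undescribed members, the 3 most abundant undescribed members, and the 3 highest and 3 lowest described members at day 12 of *chd4*(RNAi), with the last member and any the study names. A member that this rule would name is not reported here. Values are from biological replicates, so p-values measure the spread between pools of 10 worms. Other pseudocounts, scalings, filters and fits and left-out libraries were tried as alternatives. Reference sequences were not used here.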

Additional observations from a re-analysis of the deposited data

Results flagged for a closer look

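Differences between the knockdowns and between days were tested directly and passed in the following members. Members were higher in *p53*(RNAi) than in *chd4*(RNAi) at day 6 in 94 cases and lower in 5, where 4.89% and 5.08% of all tested transcripts were. At day 12 they were lower in 137 and higher in 6 (12.8% and 14.8% of all). At day 15 they were lower in 170 and higher in 3 (16.3% and 15.5% of all). The change of the *p53* difference from day 12 to day 15 was called negative for 58 (1.26% of all). With 1 library of the groups compared left out, the 58 ranged from 10 to 103 and the 94 from 53 to 76. Among the members with extreme values in *chd4*(RNAi), the day 15 difference of *p53* minus *chd4* was -3.18 (log2) for histone H2B.1/H2B.2 (SMED30021461), -2.59 for late histone H2B.2.1 (SMED30011775), -1.34 for innexin unc-9 (SMED30023483), -0.52 for C9orf64-like (SMED30011372) and -0.34 for RPB9 (SMED30021243). It was 1.02 for inositol oxygenase (SMED30019899), the named member that was higher in *p53*(RNAi). Their causes were not tested. A test for a single outlying value was not run, as no group had more than 3 libraries.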

How the results depend on the processing

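Named members with a call at day 15 of *p53*(RNAi) or day 12 of *chd4*(RNAi) kept their direction under the alternatives run. Change of direction was not scored for the other results. With only the groups compared in the fit, *p53*(RNAi) day 12 gave 27 members lower and 4 higher, day 15 gave 1 higher, the change from day 12 to 15 gave 0, *p53* minus *chd4* at day 12 gave 91 lower and the control's day 12 minus day 6 gave 19 lower; this fit has fewer samples. A pseudocount of 0.1 left 1 member higher at *chd4*(RNAi) day 3. Without replicate 1 of *p53*(RNAi) day 9 and replicate 2 of *unc22*(RNAi) day 6 together, a pair that earlier work on these data set apart, *chd4*(RNAi) day 6 gave 1 lower and 5 higher and the control comparison 20 lower. With a pseudocount of 2 the members' median in *p53*(RNAi) was 0.19 at day 6, -0.51 at day 15 and -0.92 at day 18, and with 0.1 it was -1.60 at day 18.

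With each replicate of the groups compared left out in turn, members lower and higher ranged as follows. *p53*(RNAi) gave 0 lower and 1 to 2 higher at day 3, 0 to 1 and 13 to 23 at day 6, 29 to 104 and 6 to 11 at day 12, and 157 to 176 and 1 to 4 at day 15, and its change from day 12 to 15 gave 10 to 103 lower. *chd4*(RNAi) gave 0 lower and 1 to 2 higher at day 3, 0 to 4 and 5 to 8 at day 6, 5 to 8 and 48 to 62 at day 12, and 18 to 27 and 21 to 26 at day 15. *p53* minus *chd4* gave 5 lower and 53 to 76 higher at day 6, 90 to 153 and 5 to 6 at day 12, and 161 to 170 and 3 at day 15. The control's day 12 minus day 6 gave 18 to 27 lower.

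A replicate block changed little, with 79 members lower at day 12 and 173 at day 15 of *p53*(RNAi). The numbers do not pair the samples, since same-numbered libraries correlated at -0.019 to 0.084 in their deviations (18 pairs, 0 above 0.1). When members were chosen again, 183 to 195 of the 200 stayed without a single library (183 without *p53*(RNAi) day 9 replicate 1), 189 with a pseudocount of 0.1 and 167 with 2. In an alternative chosen after seeing the data, the 200 members chosen without that library gave 75 lower at day 12 and 170 at day 15. For single named members at day 15 of *p53*(RNAi) and day 12 of *chd4*(RNAi), 25 of 1170 values lost their call and 6 gained it. Of those with a call, 0 turned. Members of few reads, down to 9.5 per library, limit small differences.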

Other observations

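*p53* itself (SMED30026364) was not low in *chd4*(RNAi). Its difference from control there was 0.45 (log2) at day 12 (limma, adjusted p = 0.032) and -0.02 at day 15 (adjusted p = 0.96), beside members' medians of 0.21 and 0.01. *AGAT-1* (SMED30018353), the marker of late epidermal progeny, did not share the early rise: in *p53*(RNAi) it was at -0.60 at day 3, -0.92 at day 6 and -2.05 at day 12.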
